A study of Homo sapiens with 8 samples.

Results

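Integrins are the receptors through which cells hold on to the matrix around them, and integrin-linked kinase (ILK) sits on the inner face of their beta chains. The 10 genes described here are 6 integrin alpha subunits (ITGA2, ITGA3, ITGA5, ITGA6, ITGA10 and ITGAV), 3 beta subunits (ITGB1, ITGB4 and ITGB5) and ILK. They were taken by name, from a given list, out of the 23368 gene symbols of the table. That list was chosen with earlier results of these data known. All 10 passed the filter of a mean normalized count of at least 10 over the 8 libraries, as did 13010 genes in all. The table also lists 17 further integrin subunits, so 26 subunits in all were measured.

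The RNA came from H2030-BrM, an established human lung adenocarcinoma line (H2030) selected for growth in the brain. In every group the cells carried an EGFP-tagged ribosomal protein, Rpl10a, from a lentiviral vector with a hygromycin marker. Antibodies against EGFP pulled down the tagged ribosomes (translating ribosome affinity purification), so the reads count mRNA on the ribosomes of the human cells and not total mRNA. Each of 4 groups had 2 libraries. The control dish group carried an shRNA against luciferase and was taken from a petri dish at 0 h, and the control slice group had spent 48 h on a mouse brain slice. In the shL1CAM dish and shL1CAM slice groups the shRNA targeted L1CAM instead, in the same 2 cultures. The medium and its serum, the support under the cells and the time differ together between dish and slice and cannot be told apart. The labels name a single L1CAM shRNA and no rescue, the slice is mouse tissue that still holds its own cells, and the whole study is on 1 cell line.

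An integrin is a pair of 1 alpha and 1 beta chain, and the pair sets the ligand. ITGA3 and ITGA6 with ITGB1 bind laminins, and ITGA6 with ITGB4 anchors epithelial cells to the basement membrane in hemidesmosomes. ITGA2 and ITGA10 with ITGB1 bind collagens, ITGA5 with ITGB1 binds fibronectin, and ITGAV pairs with several beta chains, ITGB5 among them, to bind vitronectin and other ligands with an RGD motif. ILK, despite its name a pseudokinase, joins the tails of beta chains to actin through its partners of the PINCH and parvin families. L1CAM is a neural adhesion molecule whose extracellular part can itself be bound by integrins, and in metastatic cells it has been linked to signalling through ITGB1 and ILK, which is the question these genes bear on here.

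For orientation, the 250 bases before the start of 3 members are printed here, chosen after their values were seen: ITGA2 and ITGA10 passed with L1CAM shRNA, and ITGA5 had every L1CAM shRNA library below every control, short of the threshold. ITGA6, whose average log2 fold change with L1CAM shRNA (-0.74) was lower than that of ITGA5 (-0.42), has 2 windows without the core described next. It is not printed. The windows were read from RefSeq promoters on build GRCh38.p14, which held 13 windows for 8 of the 10 members. ITGA3 and ITGB4 had no entry. Capitals mark the core site of the TEAD factors, the DNA-binding partners of YAP, spelled GGAATG and searched on both strands. The ITGA10 window (chr1:145910051-145910300, minus strand) is poor in CpG, with 1 CpG pair and 48.4% GC. The ITGA5 window (chr12:54419267-54419516, minus strand) has 70.0% GC, and the ITGA2 window (chr5:52989102-52989351, plus strand) has 76.4% GC and 26 CpG pairs. The median over all windows was 58% GC and 11 CpG pairs.
ITGA10: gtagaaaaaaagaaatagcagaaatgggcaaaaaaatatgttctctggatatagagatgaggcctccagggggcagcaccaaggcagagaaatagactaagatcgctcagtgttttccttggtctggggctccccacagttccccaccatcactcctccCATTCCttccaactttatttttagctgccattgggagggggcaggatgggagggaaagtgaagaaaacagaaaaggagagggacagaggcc
ITGA5: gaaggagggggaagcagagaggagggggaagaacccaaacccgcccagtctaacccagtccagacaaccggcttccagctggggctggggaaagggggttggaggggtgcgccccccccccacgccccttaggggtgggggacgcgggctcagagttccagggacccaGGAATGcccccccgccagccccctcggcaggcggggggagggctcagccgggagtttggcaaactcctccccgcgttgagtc
ITGA2: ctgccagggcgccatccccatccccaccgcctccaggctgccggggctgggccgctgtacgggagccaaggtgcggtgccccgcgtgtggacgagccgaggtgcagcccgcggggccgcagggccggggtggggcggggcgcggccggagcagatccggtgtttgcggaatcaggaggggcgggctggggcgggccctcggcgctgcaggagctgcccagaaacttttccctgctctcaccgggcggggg
The TEAD core begins 91 bases before the start of ITGA10, where it reads in the other direction, and 82 bases before that of ITGA5. Another match lay 182 bases before 1 of the 2 ITGB1 starts, and the other 10 member windows had none. Of 34788 promoter windows of the same length, 11.89% held this core. The AP-1 site TGANTCA, searched on both strands, was in 0 of the 13 member windows and in 6.591% of all windows. These matches describe letters and not binding.

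L1CAM, the target of the shRNA, was checked first. Its normalized count was 482 and 440 in the control dish and 451 and 438 in the control slice, against 126 and 88.3 in the shL1CAM dish and 74.7 and 65.4 in the shL1CAM slice. All 4 libraries with L1CAM shRNA lay below all 4 with control shRNA. The log2 fold change, here and below from limma on log2(normalized count + 1) with p-values adjusted by Benjamini-Hochberg over the 13010 genes, was -2.11 ± 0.21 (SE) in the dish (4.33-fold lower, adjusted p = 0.00865) and -2.65 ± 0.21 on the slice (6.28-fold lower, adjusted p = 0.00164). Leaving out any 1 of the 4 dish libraries ended the call in the dish, with adjusted p between 0.104 and 0.191. A fit of the 4 slice libraries alone ended the call on the slice (adjusted p = 0.318), and without replicate 2 of the shL1CAM slice the slice value was -2.56 (adjusted p = 1.26e-05).

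Libraries held between 13486212 and 16734651 recovered reads. The 2 libraries of the shL1CAM slice stood apart from each other, with an SD across genes of 0.637 for their log2 difference against 0.218 to 0.303 in the other groups. That difference moved with base composition and with transcript length. Its median was -0.555 in the decile of genes with the lowest GC content and 0.597 in the decile with the highest, and it was 0.585 in the decile with the shortest transcripts and -0.757 in that with the longest. Values without replicate 2 of the shL1CAM slice are therefore given beside the main results that use these libraries. That fit leaves 1 library in the group, so its p-values rest on the spread within the other groups. Such p-values are a description and add no support to the main results. In the shL1CAM dish, replicate 2 was lower than replicate 1 for 8 of the 10 members, ITGA10 and ILK being the exceptions. Epithelial markers fit the line in part: KRT8 and KRT18 averaged 4204 to 5874 in each group and EPCAM 99.5 to 159, CDH1 only 21.2 to 28.8, and KRT7, KRT19 and the lung genes NKX2-1, NAPSA and SFTPB had means under 10 over all libraries. The remaining marker, MUC1, was the only 1 of the 5 tested to pass on the slice, higher with either shRNA. It averaged 293 in the control dish and 1075.5 in the control slice, and 287 and 818 with L1CAM shRNA.

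Of mouse brain markers, P2RY12, C1QA and C1QB (microglia), MOG (oligodendrocytes) and S100B (astrocytes) were at 0 in all 8 libraries. The summed normalized count of the 6 oligodendrocyte markers ran from 4308 to 5042 in the dish and from 5380 to 6399 on the slice, nearly all of it MBP and CNP. Summed over 10 neuron markers it ran from 6407 to 6871 and from 7476 to 8266. The 7 astrocyte markers summed to 1836 to 2405 in the dish and 1095 to 1535 on the slice, the 10 microglia and macrophage markers to 483 to 861 and 529 to 826, and the 8 endothelial and mural markers to 48.6 to 74.3 and 42.0 to 55.6. The part of mouse RNA in the slice results below was not tested. As in any bulk sample, fewer cells with a transcript and less of it per cell cannot be told apart.

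**Figure D1:**
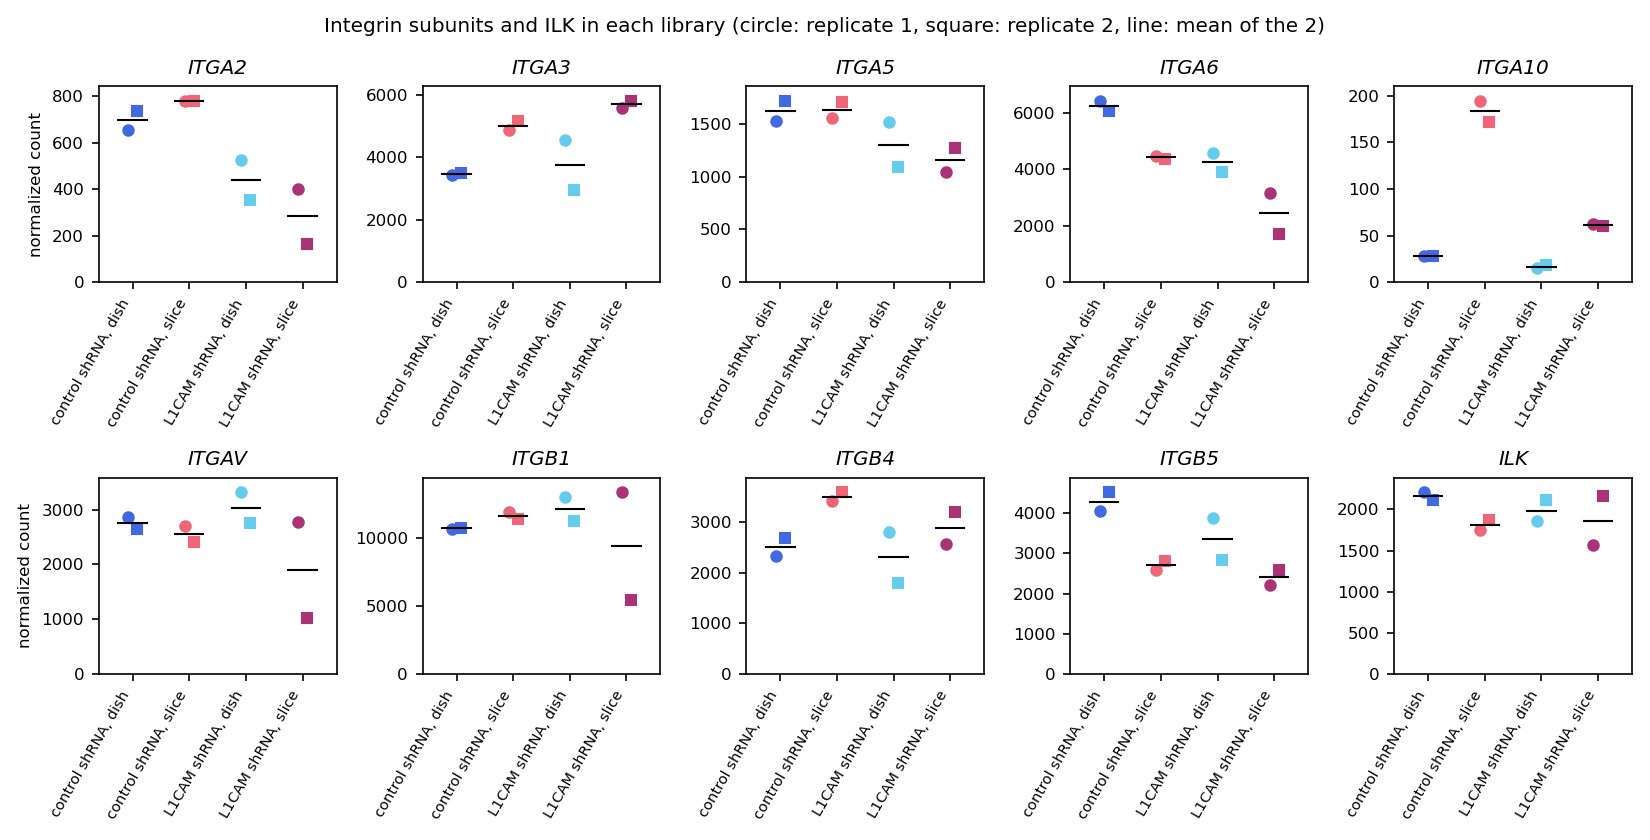
Normalized count (linear axis from 0) of each of the 10 members in the 8 libraries, by group, with circles for replicate 1, squares for replicate 2 and a line at the mean of the 2. ITGA10 is high in both slice groups and lower there with L1CAM shRNA, ITGB5 is lower in all 4 slice libraries than in any dish library, and ITGB1 and ITGAV split between the 2 replicates of the shL1CAM slice.

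ITGA10, the alpha chain of a collagen receptor best known from cartilage, showed the widest change of the set. Its normalized count was 28.4 and 28.3 in the control dish, 195 and 172 in the control slice, 15.6 and 18.1 in the shL1CAM dish, and 62.7 and 60.7 in the shL1CAM slice. The 4 groups did not overlap, and their order was the same by either replicate: control slice, L1CAM shRNA slice, control dish, L1CAM shRNA dish. On the slice it rose by 2.65 ± 0.22 on the log2 scale with control shRNA (6.28-fold, adjusted p = 0.00184) and by 1.82 ± 0.22 with L1CAM shRNA (3.53-fold, adjusted p = 0.00243). Both rises passed the threshold in all 21 alternative fits, with log2 fold changes from 2.33 to 2.74 and from 1.42 to 1.97. With replicate 2 of the shL1CAM slice left out, the rise with L1CAM shRNA was 1.84 (adjusted p = 0.000208). These are small counts, of 17 to 30 reads in a dish library and 51 to 204 on the slice, so the dish level is known less well than those of the other members.

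L1CAM shRNA lowered ITGA10 on the slice by a log2 fold change of -1.55 ± 0.22 (2.94-fold lower, adjusted p = 0.0286). In the dish the value was -0.72 ± 0.22 and did not pass (adjusted p = 0.310). Averaged over both cultures ITGA10 fell by 1.14 ± 0.16 on the log2 scale (2.20-fold, adjusted p = 0.00783). Without replicate 2 of the shL1CAM slice the slice value was -1.53 (adjusted p = 0.00569) and the average -1.13 (adjusted p = 0.000682). The slice call was lost when any 1 of the 6 libraries outside the shL1CAM slice was left out, with adjusted p between 0.0880 and 0.401, and with log2 fold changes of -1.64 to -1.47. It was lost too with library weights (adjusted p = 0.2501), with no filter (0.0776) and in a fit of the 4 slice libraries (0.386), so in 9 of 21 alternatives. The average call was lost without either control library of either culture or without replicate 1 of the shL1CAM dish, at adjusted p between 0.0502 and 0.0755. The slice rise was smaller with L1CAM shRNA by 0.83 ± 0.32 in the interaction (95% interval of the interaction -1.55 to -0.11, unadjusted p = 0.0281), and this did not pass over all genes (adjusted p = 0.970). The slice and knockdown comparisons share the control slice or shL1CAM slice libraries and are not independent of each other.

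ITGA2, the alpha chain of the main epithelial collagen receptor, was lower with L1CAM shRNA in every library. Its normalized count was 656 and 737 in the control dish and 779 and 782 in the control slice, against 528 and 354 in the shL1CAM dish and 402 and 165 in the shL1CAM slice. No library with L1CAM shRNA reached the lowest library with control shRNA. Averaged over both cultures it fell by 1.14 ± 0.26 on the log2 scale (2.20-fold, adjusted p = 0.0469). The values within a culture were -0.68 ± 0.36 in the dish (adjusted p = 0.619) and -1.59 ± 0.36 on the slice (adjusted p = 0.103), and neither passed. With replicate 2 of the shL1CAM slice left out, the average was -0.82 (adjusted p = 0.000431) and the slice value -0.96 (adjusted p = 0.00991). Leaving out any 1 of the 6 libraries outside the shL1CAM slice ended the call on the average, with adjusted p between 0.144 and 0.188, as did no filter (0.0826), a mean of at least 50 (0.0559) and robust eBayes (0.0510). On the slice with control shRNA the change was 0.17 ± 0.36 (adjusted p = 0.792).

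ITGA5, the alpha chain of the fibronectin receptor, was the other member with all 4 L1CAM shRNA libraries below all 4 controls, by a narrow margin. It stood at 1528 and 1720 in the control dish and 1551 and 1706 in the control slice, and at 1513 and 1088 in the shL1CAM dish and 1046 and 1267 in the shL1CAM slice. Averaged over both cultures the log2 fold change was -0.42 ± 0.13 and did not pass (adjusted p = 0.117). Leaving out replicate 2 of the shL1CAM slice, it was -0.49 (adjusted p = 0.00602). A separation of this kind, with every L1CAM shRNA library below every control, was found for 5.23% of all genes tested, and for 2 of the 10 members. The reverse, every one of them above, was found for 4.49% of genes and for 0 members. The slice itself left ITGA5 at 0.00 ± 0.19 with control shRNA (95% interval -0.43 to 0.43).

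ITGA3 and ITGA6, the laminin-binding alpha chains and the most abundant alpha members, changed in opposite directions on the slice. ITGA3 was at 3443 and 3496 in the control dish and 4859 and 5156 in the control slice, and at 4568 and 2953 in the shL1CAM dish and 5565 and 5817 in the shL1CAM slice. All 4 slice libraries lay above all 4 dish libraries, as they did for 16.9% of genes. Averaged over both shRNAs it rose by 0.58 ± 0.14 on the log2 scale (1.49-fold, adjusted p = 0.0115). The rise passed with L1CAM shRNA (0.63 ± 0.20, adjusted p = 0.0498) and not with control shRNA (0.53 ± 0.20, adjusted p = 0.102), while the interaction was 0.10 ± 0.28 (adjusted p = 0.971). Without replicate 2 of the shL1CAM slice the average was 0.56 (adjusted p = 0.00105). The average was lost without replicate 1 of the control dish or replicate 2 of the control slice (adjusted p = 0.0510 and 0.0555). The call with L1CAM shRNA was lost without any 1 of the 4 control libraries (adjusted p 0.0950 to 0.0983) or without replicate 2 of the shL1CAM dish, which brought the value to 0.32 (adjusted p = 0.248). It was lost in 12 of 21 alternatives in all, among them a pseudocount of 0.25 (adjusted p = 0.0502), robust eBayes (0.0521), edgeR (0.0567), library weights (0.183) and the GC trend removed (0.43, adjusted p = 0.112). When replicate 2 of the shL1CAM slice was left out it was 0.60 (adjusted p = 0.0188).

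ITGA6 stood at 6441 and 6084 in the control dish, 4477 and 4383 in the control slice, 4589 and 3925 in the shL1CAM dish, and 3179 and 1712 in the shL1CAM slice. The dish and slice libraries separated within each shRNA, and the control slice overlapped the L1CAM shRNA dish. Averaged over both shRNAs ITGA6 fell on the slice by 0.68 ± 0.18 on the log2 scale (1.60-fold, adjusted p = 0.0168). With L1CAM shRNA the fall was 0.86 ± 0.25 (adjusted p = 0.0407), and the value with control shRNA, -0.50 ± 0.25, did not pass (adjusted p = 0.211). With replicate 2 of the shL1CAM slice left out, the average was -0.46 (adjusted p = 0.000156), with -0.42 for L1CAM shRNA (adjusted p = 0.0118). The average was lost without any 1 of the control libraries or without replicate 1 of the shL1CAM dish (adjusted p 0.0543 to 0.0785), and the call with L1CAM shRNA without any 1 of the 6 libraries outside the shL1CAM slice (adjusted p 0.0761 to 0.225). L1CAM shRNA gave -0.56 ± 0.25 in the dish (adjusted p = 0.538), -0.92 ± 0.25 on the slice (adjusted p = 0.155) and -0.74 ± 0.18 on average, just outside the threshold (adjusted p = 0.0565). These 3 values without replicate 2 of the shL1CAM slice were -0.56 (adjusted p = 0.00230), -0.48 (adjusted p = 0.0307) and -0.52 (adjusted p = 0.000373).

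ITGAV, the alpha chain of the vitronectin receptors, passed in none of the contrasts. It was at 2859 and 2653 in the control dish, 2708 and 2418 in the control slice, 3324 and 2757 in the shL1CAM dish, and 2774 and 1015 in the shL1CAM slice. A single library, replicate 2 of the shL1CAM slice, lay far below the other 7. The log2 fold change with L1CAM shRNA on the slice was -0.61 ± 0.37 (95% interval -1.46 to 0.24, adjusted p = 0.370), and without that library it was 0.12 (adjusted p = 0.694).

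ITGB1, the beta chain shared by ITGA2, ITGA3, ITGA5, ITGA6 and ITGA10, was the most abundant member by count. It had 10636 and 10755 in the control dish, 11887 and 11407 in the control slice, 12996 and 11241 in the shL1CAM dish, and 13378 and 5439 in the shL1CAM slice. Apart from that last library, its values spanned no more than 10636 to 13378, and no contrast passed. The log2 fold change on the slice with control shRNA was 0.12 ± 0.34 (95% interval -0.64 to 0.89), and with L1CAM shRNA in the dish 0.18 ± 0.34 (95% interval -0.59 to 0.94). On the slice L1CAM shRNA gave -0.45 ± 0.34 (adjusted p = 0.449), which became 0.20 without replicate 2 of the shL1CAM slice (adjusted p = 0.394).

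ITGB5, a beta chain that pairs with ITGAV, fell on the slice. It was at 4054 and 4530 in the control dish and 2589 and 2814 in the control slice, and at 3885 and 2844 in the shL1CAM dish and 2224 and 2593 in the shL1CAM slice. All 4 slice libraries lay below all 4 dish libraries, as they did for 18.2% of genes. The fall was 0.67 ± 0.18 on the log2 scale with control shRNA (1.59-fold, adjusted p = 0.0384) and 0.57 ± 0.13 averaged over both shRNAs (1.48-fold, adjusted p = 0.00836). The average passed in all 20 alternative fits. The value with L1CAM shRNA, -0.47 ± 0.18, did not pass (adjusted p = 0.0909), and without replicate 2 of the shL1CAM slice it was -0.58 (adjusted p = 0.00953). The call with control shRNA was lost without any 1 of its 4 libraries, at adjusted p between 0.167 and 0.255. L1CAM shRNA gave -0.27 ± 0.13 on average (adjusted p = 0.239), and -0.32 without replicate 2 of the shL1CAM slice (adjusted p = 0.0369).

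ITGB4, the hemidesmosome beta chain, had 2329 and 2688 in the control dish, 3423 and 3601 in the control slice, 2812 and 1797 in the shL1CAM dish, and 2577 and 3210 in the shL1CAM slice. With control shRNA the slice libraries lay above the dish libraries, and with L1CAM shRNA they overlapped. Averaged over both shRNAs the slice change was 0.42 ± 0.15 and just missed the threshold (adjusted p = 0.0582). Leaving out replicate 2 of the shL1CAM slice, it was 0.34 (adjusted p = 0.0286). L1CAM shRNA gave -0.22 ± 0.15 on average (adjusted p = 0.395), and -0.30 without that library (adjusted p = 0.106).

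ILK was at 2212 and 2120 in the control dish, 1750 and 1874 in the control slice, 1855 and 2110 in the shL1CAM dish, and 1570 and 2160 in the shL1CAM slice. The control dish lay above the control slice and, by a small margin, above the shL1CAM dish, and the other groups overlapped. No contrast passed: the slice gave -0.26 ± 0.17 with control shRNA (adjusted p = 0.343) and L1CAM shRNA gave -0.05 ± 0.12 on average (95% interval -0.33 to 0.23, adjusted p = 0.810). The latter was -0.17 without replicate 2 of the shL1CAM slice (adjusted p = 0.129). Without replicate 2 of the shL1CAM slice the slice average moved from -0.18 (adjusted p = 0.275) to -0.30 (adjusted p = 0.00366). Of the exonic bases of ILK, 13.1% and 11.4% overlap a transcript on the other strand (AC091564.2 and AC091564.3, GENCODE 29), and 1.43% overlap TAF10. The kit did not mark strand, so reads of these genes cannot be told from those of ILK. The other members shared at most 2.98% of their exonic bases with a gene on the other strand.

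**Figure D2:**
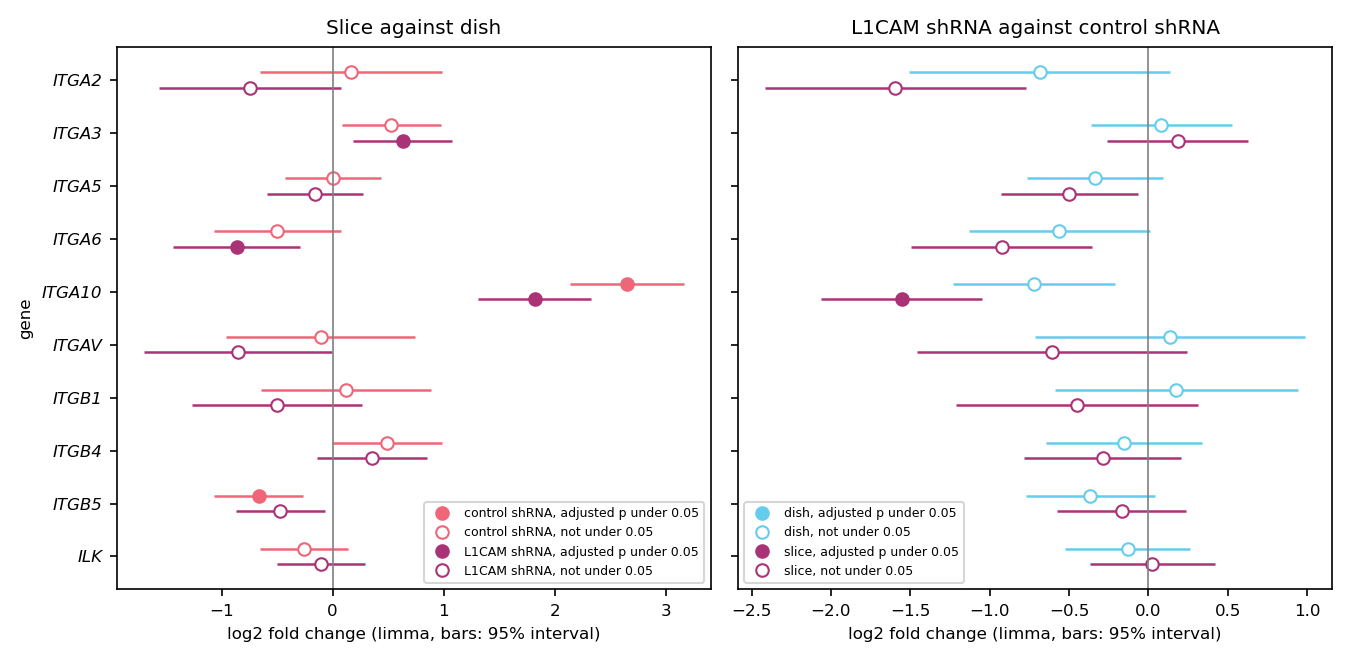
Log2 fold change of each member (points, with 95% intervals as bars), slice against dish on the left for each shRNA and L1CAM shRNA against control shRNA on the right for each culture; filled points passed at an adjusted p under 0.05. ITGA10 lies apart on the left at 2.65 and 1.82, and is the single filled point on the right.

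Counted over the set, the slice with control shRNA raised 1 member (ITGA10) and lowered 1 (ITGB5), where 14.8% of all genes passed, 6.8% higher and 8.03% lower. With L1CAM shRNA it raised 2 (ITGA3 and ITGA10) and lowered 1 (ITGA6), where 21.3% of genes passed, 10.1% higher and 11.2% lower. Averaged over both shRNAs 2 rose and 2 fell, where 37.7% of genes passed, 18.6% higher and 19.1% lower. These shares of the members are close to the background. L1CAM shRNA changed 0 of 10 members in the dish, where 0.307% of genes passed (0.0922% higher and 0.215% lower), with 1 member (ITGA10) at an unadjusted p under 0.05 and 0 called by edgeR or DESeq2. On the slice it lowered 1 (ITGA10), where 0.646% of genes passed and 0.492% were lower. On average it lowered 2 (ITGA2 and ITGA10), where 3.68% of genes passed and 2.39% were lower. The interaction had 0 members and 0% of genes, with 1 member (ITGA10) and 162 genes at an unadjusted p under 0.05, and edgeR and DESeq2 each called 0 members. The median member had a log2 fold change of -0.25 with L1CAM shRNA on average, against 0.00 over all genes tested, and of -0.19 on the slice on average, against 0.00.

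With replicate 2 of the shL1CAM slice left out, that group had 1 library and the spread came from the other groups alone. This spread was smaller, and more genes passed in every contrast except the interaction. The counts that follow are a description only. The slice with control shRNA then changed 6 members (ITGA3, ITGA6, ITGA10, ITGB4, ITGB5 and ILK) among 6109 genes, and with L1CAM shRNA 5 among 5039. L1CAM shRNA lowered 2 in the dish (ITGA2 and ITGA6) among 1437 genes. On the slice it lowered 4 (ITGA2, ITGA5, ITGA6 and ITGA10) among 607 genes, and on average 5 (those 4 and ITGB5) among 2501. The interaction had 0 members and 0 genes. Leaving out replicate 1 of the shL1CAM slice instead leaves replicate 2 as the only library of that group. More genes passed there than without replicate 2 for L1CAM shRNA on the slice, on average and in the interaction. Members were among those of the interaction, so its result depends on which library is left out. The 2 libraries differ from each other, and which of them is nearer the true level was not tested. The direction of the members called in the fit of all 8 libraries was the same without either replicate.

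The members that split between the 2 shL1CAM slice replicates were those poor in G and C. Replicate 2 minus replicate 1 on the log2 scale was -1.28 for ITGA2 (40.2% GC in its longest transcript), -0.89 for ITGA6 (42.9%), -1.45 for ITGAV (38.2%) and -1.30 for ITGB1 (40.0%). The other 6 members have 53.2% to 63.7% GC and differed by between -0.05 (ITGA10) and 0.46 (ILK). The 4 low values are further from 0 than the median of any decile of genes. Over 11540 tested genes with a known transcript (88.7%), the Spearman correlation of this difference with GC content was 0.595, and with transcript length -0.644. The genes share these libraries, and the figures describe them only. In the other groups the correlation with GC content lay between -0.153 and 0.313. With the GC trend removed from each library, a setting added after the data were seen, L1CAM shRNA lowered 2 members on the slice (ITGA2 and ITGA10) among 308 genes, and 4 on average (ITGA2, ITGA5, ITGA6 and ITGA10) among 1178, where 84 and 479 genes passed without that step.

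**Figure D3:**
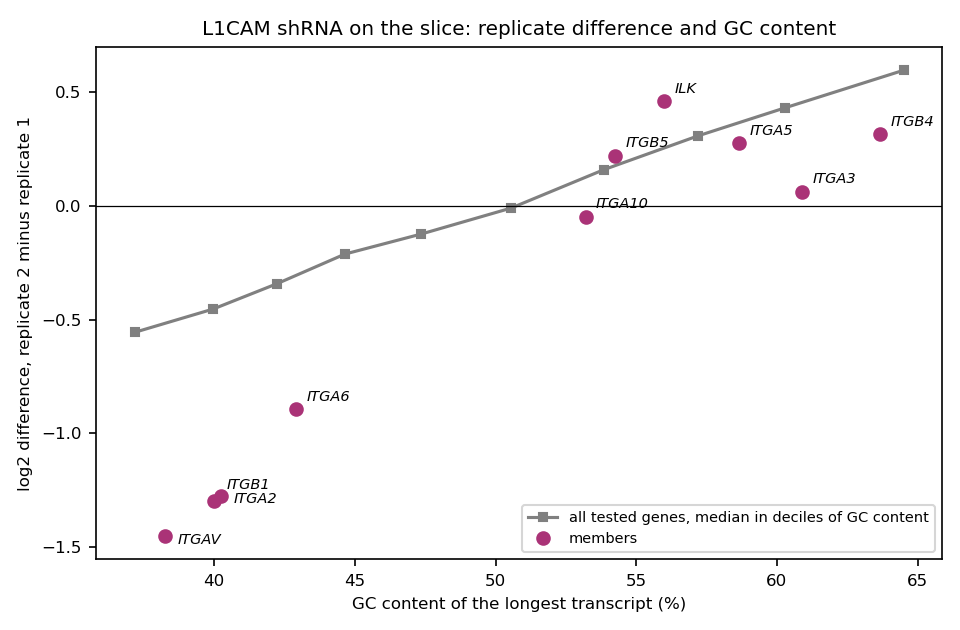
Log2 difference between the 2 replicates of L1CAM shRNA on the slice (replicate 2 minus replicate 1, vertical axis) against the GC content of the longest transcript in percent, for the 10 members (points) and as the median of all tested genes in deciles of GC content (squares). ITGA2, ITGA6, ITGAV and ITGB1, at 38.2% to 42.9% GC, lie between -1.45 and -0.89, and the other 6 members near or above 0.

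Divided by exon length, the counts give the make-up of the subunits on the ribosomes, as a share of the 6 alpha members or the 3 beta members. In the control dish ITGA6 was the leading alpha member, with 40.9% ± 1.4 (SD, n = 2) of the alpha counts per kb, ahead of ITGA3 with 27.1% ± 0.48. In the control slice the order was turned, with ITGA3 at 38.8% ± 1.3 and ITGA6 at 28.7% ± 0.70, and in neither group did the libraries of these 2 genes overlap. ITGAV and ITGA5 followed with 14.6% and 13.9% in the dish and 13.5% and 13.9% on the slice, overlapping each other in both. With coding length in place of exon length ITGAV averaged above ITGA5, at 19.4% against 11.4% in the dish and 18.2% against 11.6% on the slice. ITGA2 held 3.37% and 3.76%. ITGA10 was last everywhere, but went from 0.205% to 1.32% of the alpha members with control shRNA. Shares within a library add up to a whole, so they are not independent of one another and were not tested.

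With L1CAM shRNA the shares were less even between libraries. In the shL1CAM dish ITGA3 (33.5% ± 3.6) and ITGA6 (32.4% ± 2.9) overlapped. In the shL1CAM slice ITGA3 held 48.1% in replicate 1 and 61.3% in replicate 2, and ITGA6 23.0% and 15.1%, so ITGA3 led in both. ITGAV held 16.3% and 7.25% and overlapped ITGA6 and ITGA5 in the order. ITGA2 had 2.59% and 2.31% in the shL1CAM dish and 2.16% and 1.08% in the shL1CAM slice, all under the lowest control library at 3.16%. ITGA10 went from 0.114% and 0.176% in the dish to 0.503% and 0.593% on the slice.

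Among beta members the order was ITGB1, ITGB5, ITGB4 in all 4 groups. ITGB1 held 66.3% ± 1.7 in the control dish and 71.4% ± 1.6 in the control slice. ITGB5 went from 23.9% ± 1.1 to 14.9% ± 0.98 with control shRNA and ITGB4 from 9.86% ± 0.66 to 13.7% ± 0.59. The last 2 thus drew close, at 618 against 568 normalized counts per kb of exon. This closeness depends on the length used: with coding length they held 17.0% and 9.71% in the control slice. In shL1CAM slice replicate 1 had 78.6% ITGB1, and replicate 2 only 55.4%, and the ranges of ITGB5 and ITGB4 overlapped. The summed alpha members were 0.621 to 0.658 of the summed beta members per kb in the control libraries, 0.513 and 0.557 in the shL1CAM dish, and 0.547 and 0.778 in the shL1CAM slice. Only subunits on the list enter these sums, and the level of mRNA on ribosomes is not that of the receptor at the surface.

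**Figure D4:**
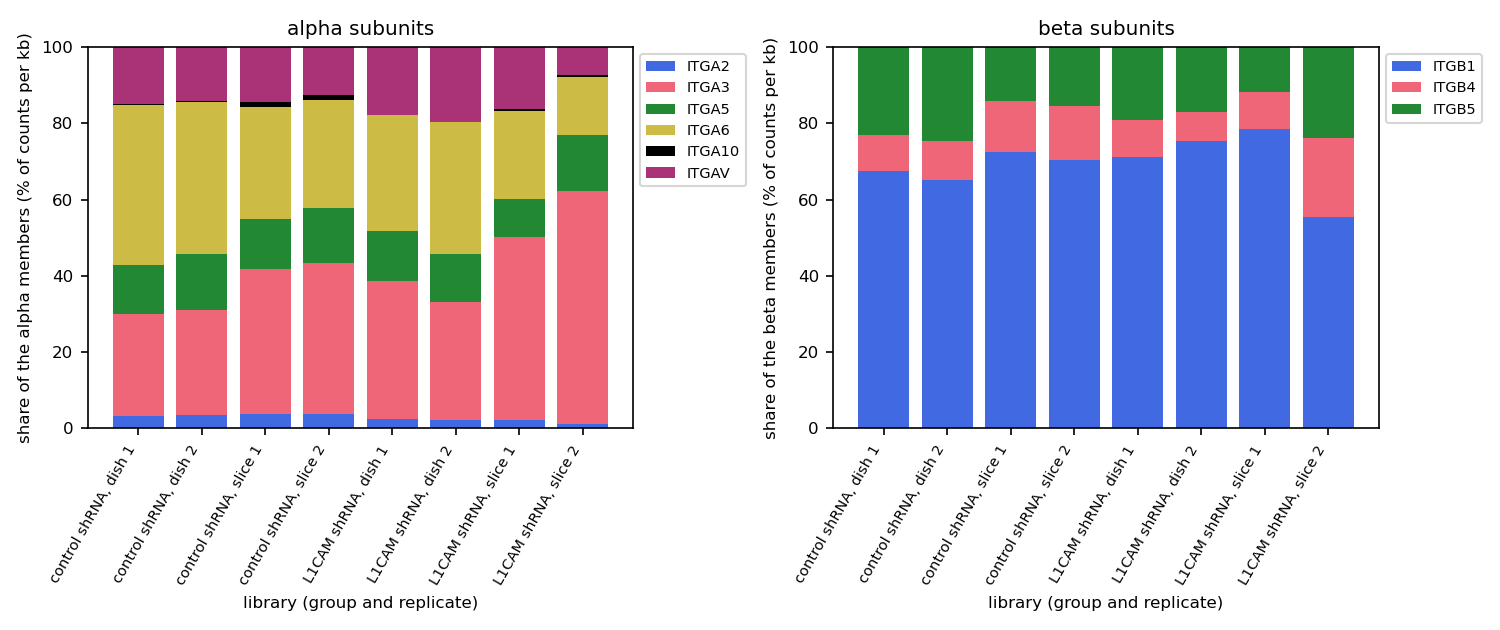
Share of each alpha member (left) and beta member (right) in percent of the summed normalized counts per kb of exon, 1 bar for each of the 8 libraries. ITGA6 leads in the control dish (41.8% and 39.9%) and ITGA3 in the control slice (37.9% and 39.7%), and the ITGB5 share is smaller in the control slice (14.2% and 15.6%) than in the control dish (23.1% and 24.6%).

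Of the other 17 integrin subunits in the table, 5 passed the filter and 12 did not. Averaged over both shRNAs the slice raised 1 of the 5 and lowered 2, against 18.6% and 19.1% of all genes. L1CAM shRNA lowered 1 on average and raised 0 (2.39% and 1.29% of all genes). ITGAE, which pairs with ITGB7 to bind E-cadherin, was the most abundant, averaging 472 in the control dish and 637 in the control slice, and it rose on the slice by 0.55 ± 0.15 averaged over both shRNAs (adjusted p = 0.0177). ITGA7, a laminin receptor of muscle, fell by 1.06 ± 0.21 (adjusted p = 0.00546), and ITGB2, the beta chain of leukocyte integrins, fell by 1.46 ± 0.30 (adjusted p = 0.00572). ITGB2 averaged 52.0 in the control dish, 20.6 in the control slice, 16.2 in the shL1CAM dish and 4.95 in the shL1CAM slice. L1CAM shRNA lowered it by a log2 fold change of -1.79 ± 0.30 on average (adjusted p = 0.0151). Its shL1CAM slice libraries held 2.77 and 7.14, and 3 reads are a normalized count of 2.77 in the first, so few reads carry these falls. Without replicate 2 of the shL1CAM slice the slice averages were 0.41 for ITGAE, -1.13 for ITGA7 and -1.73 for ITGB2. The average with L1CAM shRNA was then -2.06 for ITGB2. ITGA1 and ITGB8 passed in no contrast of the 8 libraries. ITGAM, the partner of ITGB2 in macrophages, was at 5.02 or less in every library.

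Among the 38 tested genes of 41 that bind ILK or build the adhesion plaque, the slice with control shRNA raised 1 and lowered 3, where 6.8% of all genes were higher and 8.03% lower. FERMT1 (kindlin-1, an activator of integrin beta tails) averaged 1299 in the control dish and 2566 in the control slice and rose by 0.99 ± 0.19 (adjusted p = 0.0144). TLN1, the talin that links beta tails to actin, fell by 0.84 ± 0.16 (adjusted p = 0.0133), and TLN2 and ACTN1 (alpha-actinin) fell too. With L1CAM shRNA the slice raised 4 and lowered 8, where 10.1% of all genes were higher and 11.2% lower. TLN1 was among the latter at -1.18 ± 0.16 (adjusted p = 0.00302), or -1.03 without replicate 2 of the shL1CAM slice (adjusted p = 4.66e-05). The list's median on the slice with control shRNA was 0.02, against 0.01 over all genes tested. Leaving out replicate 2 of the shL1CAM slice, more genes of this list passed, as did more of all genes, and the shares above do not apply there.

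L1CAM shRNA lowered 1 gene of this list in the dish, 1 on the slice and 6 on average, and raised 0. Of all genes 0.215%, 0.492% and 2.39% were lower in these contrasts. TENC1, a tensin that binds beta tails, stood at 488 and 496 in the control dish and 465 and 545 in the control slice, and at 202 and 179 in the shL1CAM dish and 195 and 234 in the shL1CAM slice. It fell by 1.37 ± 0.17 in the dish (adjusted p = 0.0254) and by 1.23 ± 0.17 on the slice (adjusted p = 0.0256), the libraries of the 2 shRNAs being far apart, and the slice value was -1.37 without replicate 2 of the shL1CAM slice (adjusted p = 0.000241). The others on average were TNS4, another tensin (-1.74 ± 0.23, adjusted p = 0.00573), FHL2 (-0.60), FERMT1 (-0.62), VASP (-0.53) and PXN (paxillin, -0.45). LIMS1, the PINCH protein that binds ILK, had -0.80 ± 0.18 and an adjusted p of 0.05001, just above the threshold. The list's median was -0.15 against 0.00 over all genes. Without replicate 2 of the shL1CAM slice TNS4 stood at -1.71 on average and LIMS1 at -0.60. More genes of this list passed there, as did more of all genes.

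Regulators of integrin activity and recycling (15 tested of 17) included FLNA (filamin A, which competes with talin for the beta tail). On the slice FLNA fell by 1.67 ± 0.15 with control shRNA (adjusted p = 0.00192) and 1.65 ± 0.15 with L1CAM shRNA (adjusted p = 0.00130). SHARPIN, an integrin inhibitor, was at 561 and 569 in the control dish and 920 and 964 in the control slice, and at 493 and 503 in the shL1CAM dish and 648 and 1255 in the shL1CAM slice. Its slice libraries lay above its dish libraries with either shRNA. The value with control shRNA, 0.74 ± 0.26, did not pass (adjusted p = 0.0933), and that with L1CAM shRNA, 0.86 ± 0.26, did (adjusted p = 0.0485). The second was 0.38 without replicate 2 of the shL1CAM slice (adjusted p = 0.0206), and the first then passed too (adjusted p = 5.27e-05). L1CAM shRNA itself changed 0 of the 15 in the dish, on the slice or on average, where 0.307%, 0.646% and 3.68% of all genes passed. The list's median was -0.20 on average, against 0.00 over all genes. Some of the 15 passed on average without replicate 2 of the shL1CAM slice, where more of all genes passed too. Of 11 hemidesmosome genes and lateral partners, all tested, the slice with control shRNA lowered 2 and raised 0, against 8.03% and 6.8% of all genes. These were PLEC (plectin, which ties ITGB4 to keratin), by 1.01 ± 0.19 (adjusted p = 0.0122), and SLC3A2 (the CD98 heavy chain), by 0.89 ± 0.20 (adjusted p = 0.0226). PLEC also fell with L1CAM shRNA on average, by 0.85 ± 0.13 (adjusted p = 0.0124), or by 0.80 without replicate 2 of the shL1CAM slice (adjusted p = 0.000252). It was the only gene of this list that L1CAM shRNA changed on average, where 2.39% of all genes were lower. Without that library more genes of this list passed in both contrasts, as did more of all genes.

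Of 30 ligand genes 26 were tested, and on the slice with control shRNA 2 rose and 3 fell, against 6.8% and 8.03% of all genes. TNC (tenascin C) averaged 945 in the control dish and 2931 in the control slice and rose by 1.64 ± 0.22 (adjusted p = 0.00397). THBS1 fell by 3.14 ± 0.36, CTGF by 2.25 ± 0.13 and CYR61 by 2.16 ± 0.13. L1CAM shRNA lowered LAMB3, the beta chain of laminin-332, in both cultures. LAMB3 was at 1193 and 1195 in the control dish and 1029 and 1162 in the control slice, against 529 and 346 in the shL1CAM dish and 389 and 447 in the shL1CAM slice. Its fall was 1.48 ± 0.21 in the dish (adjusted p = 0.0416) and 1.39 ± 0.21 on the slice (adjusted p = 0.0331), where the value was -1.49 without replicate 2 of the shL1CAM slice (adjusted p = 0.000692). Averaged over both cultures 2 ligand genes rose (FN1 by 1.09 ± 0.25 and COL4A2 by 1.10 ± 0.19) and 5 fell, the shRNA's target L1CAM among them with LAMB3, VTN (vitronectin), MFGE8 and CTGF, where 1.29% of all genes were higher and 2.39% lower. With replicate 2 of the shL1CAM slice left out, the averages were 1.31 for FN1, 1.08 for COL4A2 and -1.48 for LAMB3. They were -2.67 for VTN, -0.94 for MFGE8, -0.52 for CTGF and -2.33 for L1CAM. In all 8 libraries VTN averaged only 3.25 in the shL1CAM dish and 9.91 in the shL1CAM slice, so its fall rests on few reads.

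Over the 8 libraries, the tested genes with a mean of at least 50 (11030) were ranked by the Pearson correlation of their log2 values with each member. TBPL1 (r = 0.992) and MAPKAPK2 (0.991) were most like ITGA10, ARID4A (0.990) and UPF2 (0.984) most like ITGA2, and SLC4A7 (0.996) and PDE4B (0.993) most like ITGA6. For ITGA3 they were EXOC3L1 (0.979) and EPHB4 (0.978), for ITGA5 EML2 (0.959) and SQRDL (0.956), and for ITGAV HEATR5A (0.996) and NSD1 (0.996). PGAP1 (0.996) and ATP8B2 (0.993) were nearest to ITGB1, SEMA4B (0.984) and IFITM10 (0.982) to ITGB4, NDUFAF1 (0.983) and SARS (0.983) to ITGB5, and C1orf31 (0.968) and CAPZB (0.963) to ILK. Among the members themselves the closest pair was ITGAV and ITGB1 (r = 0.960), which both carry the low replicate 2 of the shL1CAM slice, then ITGA2 and ITGA6 (0.887). ITGA10 was nearest to ITGB4 (0.761). With 8 libraries, and many genes to choose from, such values describe these libraries only.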

How the data were processed

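Ribosome-bound RNA was sequenced in 8 libraries, in 4 groups of 2. The values are the normalized signal of 23368 genes as the authors deposited it, and 0 sample columns went unused. Per the submitters' processing notes the tools were FastQC 0.11.3, HTSeq 0.5.4 and DESeq2 (version not stated), on hg19 (GRCh37). Which aligner and annotation were used is not given in these sources. Every column was made of whole multiples of 1 step (100% of values, tolerance 1e-06), so reads divided by a size factor were recovered, 13486212 to 16734651 per library. A count of 0 allows up to 3 reads, a normalized count of 2.75 to 3.57, which covers counting error only.

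Genes with a mean of at least 10 (13010) were fitted in 1 limma 3.58.1 model (R 4.3.3) of the 4 groups on log2(normalized count + 1), with an eBayes trend, two-sided tests, Benjamini-Hochberg adjustment in each of 7 contrasts and a threshold of 0.05. Fold changes are on that scale and understate those of low genes. A value after ± is the SE of a fold change or the SD of 2 libraries. The replicates are labelled biological, but separate cultures are not mentioned anywhere, so p-values rest on the spread among these libraries only, which may be technical. Alternatives included edgeR 4.0.16 and DESeq2 1.42.0 on recovered reads. On data simulated for the slice contrast with control shRNA (13010 genes), 20%, 64%, 100% and 100% of genes changed by 1.5, 2, 4 and 8 times were recovered, with 7 false among 149 calls. Every simulated library had the same relation of spread to abundance. The wider spread of the shL1CAM slice and its GC and length trends were not simulated, so these shares may not hold for the real libraries. Lengths, GC content and overlaps came from GENCODE 29 by gene symbol.

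The members, lists and rules were chosen with earlier results of these data known. All members and L1CAM are named, and from other lists up to 4 genes with the smallest p in a contrast and those called with L1CAM shRNA. KRT7, other markers and ITGAM are named as checks. A few genes that these rules cover are not reported here.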

Additional observations from a re-analysis of the deposited data

How the results depend on the processing

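Of the values of members and L1CAM called in the fit of all 8 libraries, 248 stayed called under an alternative and 60 did not, and of those not called 1164 stayed so, 78 passed and 34 changed sign, while no called value changed sign. The slice with control shRNA (2 members) had 1 with no filter and 6 with library weights or in a fit of its 4 libraries. With L1CAM shRNA (3) it had 1 with no filter or in the fit of 4 libraries. L1CAM shRNA in the dish (0) had 2 with library weights or in the fit of 4 libraries. On the slice (1) it had 0 with no filter or in the fit of 4 libraries, ITGA2 in place of ITGA10 with library weights, 2 with the GC trend removed, and 3 with DESeq2 or with the length trend removed. On average (2) it had 1 with no filter, a mean of at least 50 or robust eBayes, and 4 with the GC trend removed. The causes were not tested. TMM scaling shifted no library by more than 0.0135 on the log2 scale.

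Leaving out 1 library at a time gave 1 to 6 members for the slice with control shRNA, 1 to 7 with L1CAM shRNA and 2 to 8 on average, and 0 to 2 for L1CAM shRNA in the dish, 0 to 5 on the slice, 0 to 6 on average and 0 to 4 for the interaction. Genes called ranged from 7 to 6109, 341 to 7503, 2681 to 8241, 0 to 1437, 4 to 6896, 63 to 6738 and 0 to 4136 in the same order. Over the other settings they ranged from 1529 to 7032, 510 to 3819, 4445 to 5660, 14 to 1011, 0 to 342, 345 to 1284 and 0 to 0.

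With the replicate number as a replicate block, the members called were 2, 3, 4, 0, 1, 3 and 0 in that order, so ITGA6 joined the average effect of L1CAM shRNA and no other call changed. Deviations of same-numbered libraries correlated between -0.377 and 0.194, so the numbers were not taken to pair samples.

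With coding length in place of exon length the share of ITGA2 was 4.34%, 4.92%, 3.13% and 2.16% (control dish, control slice, shL1CAM dish, shL1CAM slice) and that of ITGAV 19.4%, 18.2%, 24.7% and 16.2%. ITGA5 had 11.4%, 11.6% and 10.4% in the first 3 groups, ITGA10 1.17% in the control slice and ITGB4 10.8% in the shL1CAM slice. Without 1 library, ITGA10 held 1.23% to 1.41% in the control slice. In the shL1CAM slice ITGA2 held 1.08% to 2.16%, ITGA3 48.1% to 61.3%, ITGA5 9.95% to 14.7%, ITGA6 15.1% to 23.0%, ITGAV 7.25% to 16.3%, ITGB1 55.4% to 78.6%, ITGB4 9.62% to 20.8% and ITGB5 11.8% to 23.8%.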
